A study of Mus musculus with 86 samples.

Results

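Transcripts of the 5 dopamine receptor genes of the mouse, Drd1, Drd2, Drd3, Drd4 and Drd5, were followed through RNA-seq libraries of the prefrontal cortex, hippocampus and hypothalamus of wild house mice that kept either few or many social partners. The receptors were found by the Ensembl identifiers that carry these symbols in GENCODE vM21, and 5 of the 35275 genes in the deposited count table were members. The mice were free-ranging Mus musculus domesticus of a barn population, caught in the non-breeding season and not treated, and they came from both ends of the distribution of the number of partners met in nest boxes. Each of the 86 libraries held 1 region of 1 animal, punched from frozen sections. The prefrontal cortex and hippocampus were sampled in 7 females with small, 7 females with large, 8 males with small and 7 males with large social network sizes. In the hypothalamus each of these groups held 7 animals, since 1 male with a small social network size had no library there. Ages of the animals were not used here, and a punch mixes all cell types of its tissue.

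Dopamine receptors are G protein-coupled receptors of 2 classes. The D1 class, encoded by Drd1 and Drd5, couples to Gs or Golf and raises cyclic AMP, and the D2 class, encoded by Drd2, Drd3 and Drd4, couples to Gi or Go and lowers it. Drd1 and Drd2 are best known from the projection neurons of the striatum, where they mark the direct and the indirect pathway, and Drd2 also serves as an autoreceptor on dopamine neurons and as the receptor through which dopamine restrains prolactin release. Drd3 is known from the ventral striatum and the islands of Calleja, Drd4 from the cortex and retina, and Drd5 from the hippocampus, cortex and hypothalamus.

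The DNA before the start of a receptor gene is shown for the 3 receptors whose levels varied together between hypothalamic libraries, as described later, and for Drd5, whose level did not vary with theirs. The sequences are RefSeq's, of build GRCm38.p6, and cover up to 250 bases before the first RefSeq start of each gene, without the bases that GENCODE vM21 places in an exon of that gene. Capitals mark a GC box, searched as GGGCGG on both strands, in which overlapping matches were joined.
Drd1, chr13:54055706-54055908, minus strand: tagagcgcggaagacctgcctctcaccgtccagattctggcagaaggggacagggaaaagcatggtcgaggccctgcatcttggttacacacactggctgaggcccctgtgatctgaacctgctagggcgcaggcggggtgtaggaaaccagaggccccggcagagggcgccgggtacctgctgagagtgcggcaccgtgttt
Drd2, chr9:49340153-49340402, plus strand: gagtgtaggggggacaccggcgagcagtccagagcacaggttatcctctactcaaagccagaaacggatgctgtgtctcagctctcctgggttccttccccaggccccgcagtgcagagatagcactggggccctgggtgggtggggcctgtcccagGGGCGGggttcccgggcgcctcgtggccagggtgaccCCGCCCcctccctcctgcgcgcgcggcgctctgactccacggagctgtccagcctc
Drd3, chr16:43761971-43762207, plus strand: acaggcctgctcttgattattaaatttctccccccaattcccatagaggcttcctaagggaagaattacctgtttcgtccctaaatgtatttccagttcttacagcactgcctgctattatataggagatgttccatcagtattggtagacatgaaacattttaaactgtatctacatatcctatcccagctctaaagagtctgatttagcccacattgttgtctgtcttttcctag
Drd5, chr5:38319259-38319366, plus strand: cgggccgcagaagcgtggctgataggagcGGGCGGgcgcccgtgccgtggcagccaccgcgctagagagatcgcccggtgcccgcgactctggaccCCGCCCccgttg
The Drd3 stretch lies in an intron of the longer GENCODE transcripts, which start further upstream. All 5 receptors were matched in the RefSeq table, Drd1 with a further start. Over the full 250 bases, GC content was 68.8% for Drd2, 71.2% for Drd5, 64% for Drd1, 56.8% for Drd4 and 39.2% for Drd3, against a median of 52.4% for the 32851 starts of the table. Only 10.3% of all starts had a lower GC content than that of Drd3, whereas 92.2% had a lower one than that of Drd5. The GC box occurred 2 times before Drd2, 2 times before Drd5 and 3 times before Drd4, and it was absent from the windows of Drd3 and of the first start of Drd1. It was present in 32.7% of all windows. A TATA box searched as TATAAA (12.4% of all windows) and a cAMP response element searched as TGACGTCA (1.55%) were found in none of the receptors' windows. These are matches of letters, and binding was not measured.

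Libraries held 33711824 to 81865801 counts (median 44778419). A floor was set at 3 counts, which correspond to 0.0366 to 0.0890 CPM, the count per mega-count of the library. Levels are CPM scaled by the TMM method over all 86 libraries. Of the marker lists, 3 went with the region labels: the summed level of 4 upper layer cortical markers was 556 to 1001 CPM in the prefrontal cortex and at most 363 CPM elsewhere, that of 4 dentate granule cell markers was 86.3 to 162 CPM in the hippocampus and at most 76.6 CPM elsewhere, and that of 10 hypothalamic markers was 179 to 1538 CPM in the hypothalamus and at most 98.9 CPM elsewhere. Sums of 3 CA1 pyramidal cell markers and 9 deep layer cortical markers overlapped between all 3 regions. The sum of 4 hilar mossy cell markers went against the labels, at 147 to 257 CPM in the hypothalamus and 46.3 to 224 CPM in the hippocampus. Most of this sum was Calb2, with means of 182 and 77.8 CPM, against means of at most 4.26 CPM for the others. Xist and Y-linked counts went against the sex label in 0 libraries. Libraries of the hypothalamus also carried more of 12 striatal projection neuron markers, 794 to 2373 CPM, than libraries of the hippocampus, 306 to 585 CPM, or the prefrontal cortex, 362 to 1286 CPM. In bulk tissue, fewer cells of a type and less RNA per cell cannot be told apart.

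Drd1, the main D1-class receptor of the striatum (ENSMUSG00000021478, chr13:54051183-54055705, minus strand), was highest in the hypothalamus. Its level there was 22.8 at the lowest, 46.4 at the median and 76.4 CPM at the highest. In the prefrontal cortex it was 7.72, 14.1 and 46.8 CPM, and in the hippocampus 9.08, 13.2 and 17.5 CPM. All hypothalamic libraries lay above all hippocampal ones, and 25 of 28 animals had more Drd1 in the hypothalamus than in the prefrontal cortex. By edgeR's quasi-likelihood test with the animal as a block, the log2 difference between hypothalamus and prefrontal cortex was 1.45 ± 0.12 (SE, adjusted p = 3.22e-16) and that between hypothalamus and hippocampus was 1.76 ± 0.12 (adjusted p = 1.27e-19). Most genes differ between regions: 81.3% of 18769 genes tested were called between hypothalamus and prefrontal cortex, 76.4% between hypothalamus and hippocampus, and 72% between hippocampus and prefrontal cortex. By direction, the hypothalamus was above the prefrontal cortex in 42.2% and below it in 39.1% of genes, above the hippocampus in 36.8% and below it in 39.5%, and the hippocampus was above the prefrontal cortex in 38.8% and below it in 33.3%. A call alone therefore says little about a receptor. By p-value, Drd1, Drd2 and Drd5 ranked 5817, 4171 and 7420 among these genes between hypothalamus and prefrontal cortex. The hippocampus was lower in Drd1 than the prefrontal cortex by a log2 difference of -0.31 ± 0.13 (adjusted p = 0.0232), in 18 of 29 animals. This call rested on 2 prefrontal libraries described later, those of animals 10 and 20, without which the difference was -0.16 (adjusted p = 0.178).

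Drd5, the other D1-class receptor (ENSMUSG00000039358, chr5:38319367-38322518, plus strand), ran in another order, with its lowest level in the prefrontal cortex. Its lowest, median and highest levels were 0.622, 1.27 and 2.40 CPM in the prefrontal cortex, 1.73, 2.64 and 3.50 CPM in the hippocampus, and 1.77, 2.32 and 2.97 CPM in the hypothalamus. The ranges overlapped in every pair of regions, yet within an animal the hippocampus was above the prefrontal cortex in 28 of 29 and the hypothalamus above it in 27 of 28. The log2 difference from the prefrontal cortex was 0.94 ± 0.08 for the hippocampus (adjusted p = 6.67e-16) and 0.74 ± 0.08 for the hypothalamus (adjusted p = 2.12e-12, edgeR). Hippocampus and hypothalamus were close, with a log2 difference of -0.19 ± 0.08 for hypothalamus minus hippocampus (adjusted p = 0.0259). That difference was no longer called without the animal as a block (-0.17, adjusted p = 0.0909) or with all genes of at least 1 count (-0.18, adjusted p = 0.0516). An antisense gene, Gm26560, overlaps Drd5 on the opposite strand. The library kit does not mark strand, so reads of the pair cannot be told apart where the genes overlap. Gm26560 itself held a median of 6, 12 and 8 counts in prefrontal cortex, hippocampus and hypothalamus, against 65, 112 and 102 counts of Drd5.

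Drd2, the most abundant D2-class receptor here (ENSMUSG00000032259, chr9:49340627-49408177, plus strand), was also highest in the hypothalamus. The lowest, median and highest levels were 20.9, 34.4 and 47.3 CPM in the hypothalamus, 3.50, 6.27 and 9.77 CPM in the hippocampus, and 1.46, 3.65 and 25.1 CPM in the prefrontal cortex. In all 28 animals with a hypothalamic library, Drd2 was higher there than in either other region. The log2 difference was 2.66 ± 0.17 against the prefrontal cortex (adjusted p = 3.44e-21) and 2.42 ± 0.17 against the hippocampus (adjusted p = 1.25e-19, edgeR). Drd2 in the prefrontal cortex was the most variable of the well counted receptors, spanning 17.2-fold with a coefficient of variation of 91.5%, against 26.1% in the hippocampus and 19.97% in the hypothalamus. Hippocampus and prefrontal cortex differed by 0.24 ± 0.18 on the log2 scale (adjusted p = 0.234), and by 0.46 (adjusted p = 0.00894) without the prefrontal libraries of animals 10 and 20.

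Drd3, a D2-class receptor of the limbic striatum (ENSMUSG00000022705, chr16:43754026-43822932, plus strand), was the receptor with the widest regional range. In the hypothalamus it held 53 to 367 counts, with levels of 1.07, 4.03 and 6.73 CPM at the lowest, median and highest. In the hippocampus it held 2 to 17 counts, or 0.0443, 0.188 and 0.372 CPM. In the prefrontal cortex 8 of 29 libraries had 0 counts and 16 of 29 had at most 3, the median was 0.0633 CPM, and the highest library, of animal 10, had 40 counts or 1.02 CPM. No hypothalamic library overlapped with those of the other regions. The log2 difference between hypothalamus and prefrontal cortex was 5.23 ± 0.27 (adjusted p = 1.59e-30), or 5.72 without animals 10 and 20, and that between hypothalamus and hippocampus was 4.21 ± 0.22 (adjusted p = 2.55e-27, edgeR). Since the hypothalamic libraries alone carried Drd3 past the filter on low counts, its difference was bound to be large. The hippocampus was above the prefrontal cortex by 1.02 ± 0.31 (adjusted p = 0.00215) in 25 of 29 animals, or by 1.53 without animals 10 and 20, at counts where precision is low.

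Drd4, the D2-class receptor known from the cortex (ENSMUSG00000025496, chr7:141292006-141296464, plus strand), was lowest in the hypothalamus, where Drd1, Drd2 and Drd3 were highest. Its lowest, median and highest levels were 0.379, 0.670 and 1.12 CPM in the prefrontal cortex (15 to 70 counts), 0.0765, 0.245 and 0.570 CPM in the hippocampus (3 to 27 counts), and 0, 0.101 and 0.278 CPM in the hypothalamus (0 to 13 counts). All prefrontal libraries lay above all hypothalamic ones. The hypothalamus was lower than the prefrontal cortex in 28 of 28 animals, by a log2 difference of -2.72 ± 0.17 (adjusted p = 9.63e-24), and the hippocampus in 27 of 29, by -1.27 ± 0.14 (adjusted p = 3.38e-12, edgeR). The hypothalamus was also below the hippocampus, by -1.44 ± 0.19 (adjusted p = 8.92e-11). Here the prefrontal libraries carried the gene past the filter.

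**Figure D1:**
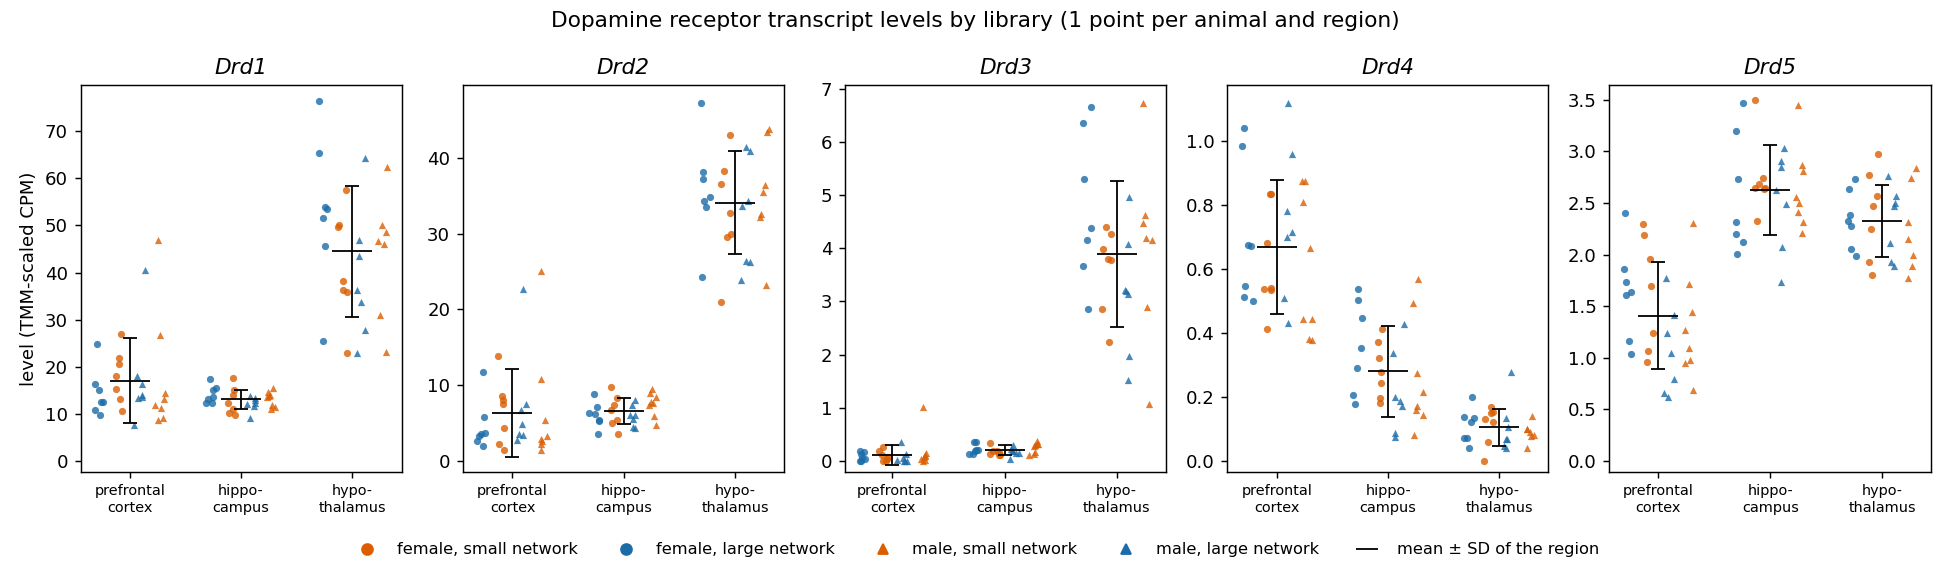
Level of each receptor (vertical axis, TMM-scaled CPM, a separate linear scale per receptor) in each library by region, with circles for females, triangles for males, orange for small and blue for large social network sizes, and the black bar for the mean ± SD of the region. Drd1, Drd2 and Drd3 stand highest in the hypothalamus, Drd4 in the prefrontal cortex, and the groups within a region overlap throughout.

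**Figure D2:**
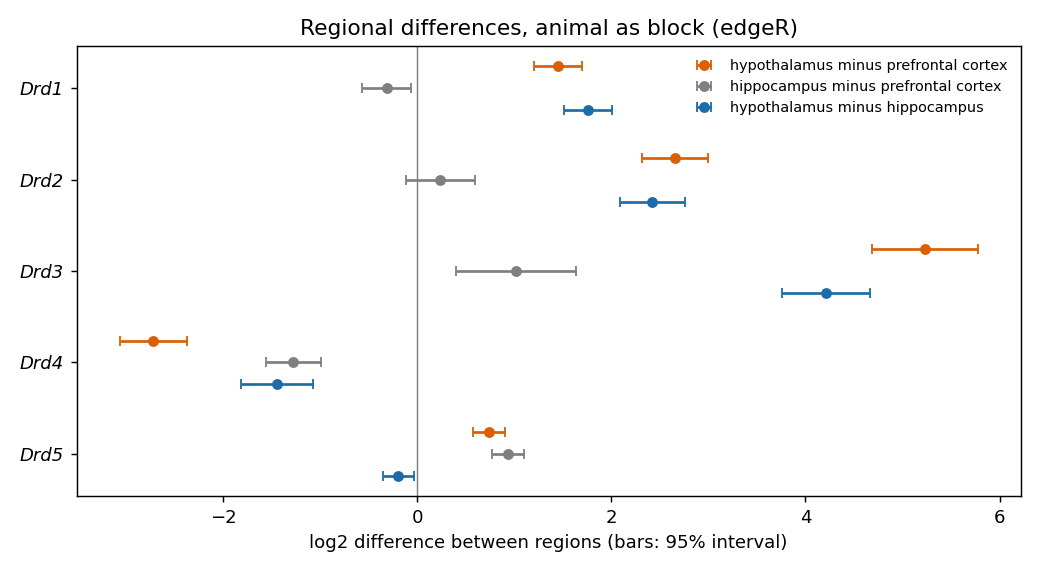
Log2 difference of each receptor between regions (horizontal axis) with its 95% interval, from edgeR with the animal as a block, in orange for hypothalamus minus prefrontal cortex, gray for hippocampus minus prefrontal cortex and blue for hypothalamus minus hippocampus. Drd3 reaches 5.23 and Drd4 falls to -2.72 in the first of these, while Drd5 stays within 1 log2 unit in all 3.

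Receptors were compared with each other only per length, as CPM per kb of exon. In the prefrontal cortex the order was Drd1 at 4.69 ± 2.48 (SD, n = 29), Drd2 at 2.49 ± 2.28, Drd5 at 0.446 ± 0.164, Drd4 at 0.198 ± 0.062 and Drd3 at 0.0674 ± 0.114 CPM per kb. In the hippocampus it was Drd1 at 3.61 ± 0.566, Drd2 at 2.59 ± 0.676, Drd5 at 0.832 ± 0.139, Drd3 at 0.122 ± 0.0530 and Drd4 at 0.0828 ± 0.0418 CPM per kb (SD, n = 29). In the hypothalamus Drd2 at 13.4 ± 2.67 and Drd1 at 12.3 ± 3.85 lay within each other's spread, followed by Drd3 at 2.27 ± 0.806, Drd5 at 0.737 ± 0.112 and Drd4 at 0.0310 ± 0.0169 CPM per kb (SD, n = 28). Means ± SD also overlapped for Drd1 and Drd2, and for Drd3 and Drd4, in both the prefrontal cortex and the hippocampus. This overlap leaves aside that the receptors were measured in the same libraries. Of the summed per-length level of the 5 receptors, Drd1 made up 61.3% ± 5.76 in the prefrontal cortex, 50.0% ± 4.64 in the hippocampus and 42.0% ± 4.16 in the hypothalamus, and Drd2 made up 27.8% ± 7.93, 35.4% ± 5.49 and 47.3% ± 4.02. Within a library, the ratio of Drd1 to Drd2 per length had a median of 2.10 in the prefrontal cortex, 1.38 in the hippocampus and 0.870 in the hypothalamus. In the prefrontal cortex it ran from 1.26 to 5.08, so that Drd1 lay above Drd2 in all 29 libraries. It ran from 0.876 to 2.45 in the hippocampus and from 0.668 to 1.24 in the hypothalamus.

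In the prefrontal cortex and hypothalamus, Drd1 and Drd2 varied together from library to library, and Drd3 followed them in the hypothalamus. These relations were not planned and were chosen after the data had been seen. On log2(CPM + 0.1), 33 relations among receptors were computed, 22 between receptors in the same library and 11 between regions of the same animal, and 13 with the summed striatal markers were added once the first 33 were known. P-values were adjusted within each of these families. Of the 33, 4 had an adjusted p under 0.05 for both Pearson's r and Spearman's rho, and 1 for only one of these (permutation test, 100000 resamples, whose smallest p is 1e-05). Drd1 and Drd2 had r = 0.93 and rho = 0.91 in the prefrontal cortex (n = 29, adjusted p = 0.00011 and 0.000165, permutation test), and r = 0.88 without the 2 libraries farthest from the median. In the hypothalamus they had r = 0.88 and rho = 0.81 (n = 28, the same adjusted p, permutation test), and r = 0.83 without the 2 farthest. The hippocampus was less clear, with r = 0.47, which did not pass after adjustment, and rho = 0.50, which did (n = 29, adjusted p = 0.0628 and 0.0401, permutation test), and r = 0.57 without the 2 farthest. Drd3 in the hypothalamus followed Drd1 with r = 0.77 and rho = 0.71 (adjusted p = 0.00011 and 0.00022, permutation test, r = 0.71 without the 2 farthest) and Drd2 with r = 0.74 and rho = 0.65 (adjusted p = 0.000165 and 0.0033, permutation test, r = 0.67 without the 2 farthest). Removing the means of the 4 groups of sex and social network size left these relations between 0.53 and 0.93. Drd5 had r between -0.27 and 0.33 with the other receptors tested, the highest with Drd4 in the prefrontal cortex (rho = 0.39, adjusted p = 0.255 and 0.133, permutation test, n = 29).

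The level of Drd1 and Drd2 moved with the summed level of 12 striatal projection neuron markers, a list without any dopamine receptor (such as Ppp1r1b, Adora2a, Rgs9, Penk, Tac1 and Pdyn). For Drd1, r was 0.89 in the prefrontal cortex, 0.63 in the hippocampus and 0.96 in the hypothalamus (rho 0.83, 0.67 and 0.94, and r 0.80, 0.73 and 0.95 without the 2 farthest libraries). For Drd2, r was 0.92, 0.76 and 0.87 (rho 0.90, 0.74 and 0.87, and r 0.88, 0.74 and 0.83 without the 2 farthest). For Drd3 in the hypothalamus, r was 0.70, as was rho, and r was 0.65 without the 2 farthest. All 7 of these, of 13 relations with the marker sum, had an adjusted p of at most 0.000557 for r and 0.000204 for rho (permutation test). All 12 of 12 markers had a positive r with Drd1 and with Drd2 in each region. For Drd4 and Drd5, r with the marker sum lay between -0.18 and 0.10 in every region where it was tested (adjusted p for r of 0.527 or more, permutation test), and for Drd3 in the hippocampus r was 0.13. None of the striatal markers had a median count of 0 in any region. Other marker lists also had a high r. Over 12 marker lists, of which only the striatal one was tested, deep layer cortical markers had r of 0.90, 0.85 and 0.83 with Drd1, Drd2 and Drd3 in the hypothalamus, and of 0.76 and 0.73 with Drd1 and Drd2 in the prefrontal cortex. With Drd3 in the hypothalamus this was above the striatal r. In the hypothalamus, CA1 pyramidal cell markers had r of 0.82, 0.75 and 0.67 with these 3 receptors, and hilar mossy cell markers had r of -0.63, -0.65 and -0.66. These sums were weighted to a few genes there. Of the deep layer list, Tle4, Bcl11b, Syt6 and Foxp2 averaged 75.2, 74.7, 55.5 and 39.7 CPM. Fezf2 and Cplx3 averaged 3.79 and 3.12 CPM, against 45.9 and 17.5 CPM in the prefrontal cortex. Of the CA1 list, Wfs1 averaged 206 CPM and the others at most 22.1 CPM. Of the mossy cell list, Calb2 averaged 182 CPM and the others at most 4.26 CPM. Whether these lists mark other cells than the striatal list was not tested. Upper layer cortical markers had r of -0.61 with Drd1 in the prefrontal cortex, and choroid plexus markers had r of 0.59 with Drd1 in the hippocampus. Dentate granule cell markers had r of -0.63 with Drd1 in the hypothalamus, and CA1 markers had r of -0.57 with Drd2 in the hippocampus. For Drd5 in the hypothalamus, r with the mossy cell sum was 0.58, with a positive r for 2 of 4 markers. Other genes of these cells and the anatomy of the punches were not examined, and the part of striatal or other tissue in these levels was not tested.

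**Figure D3:**
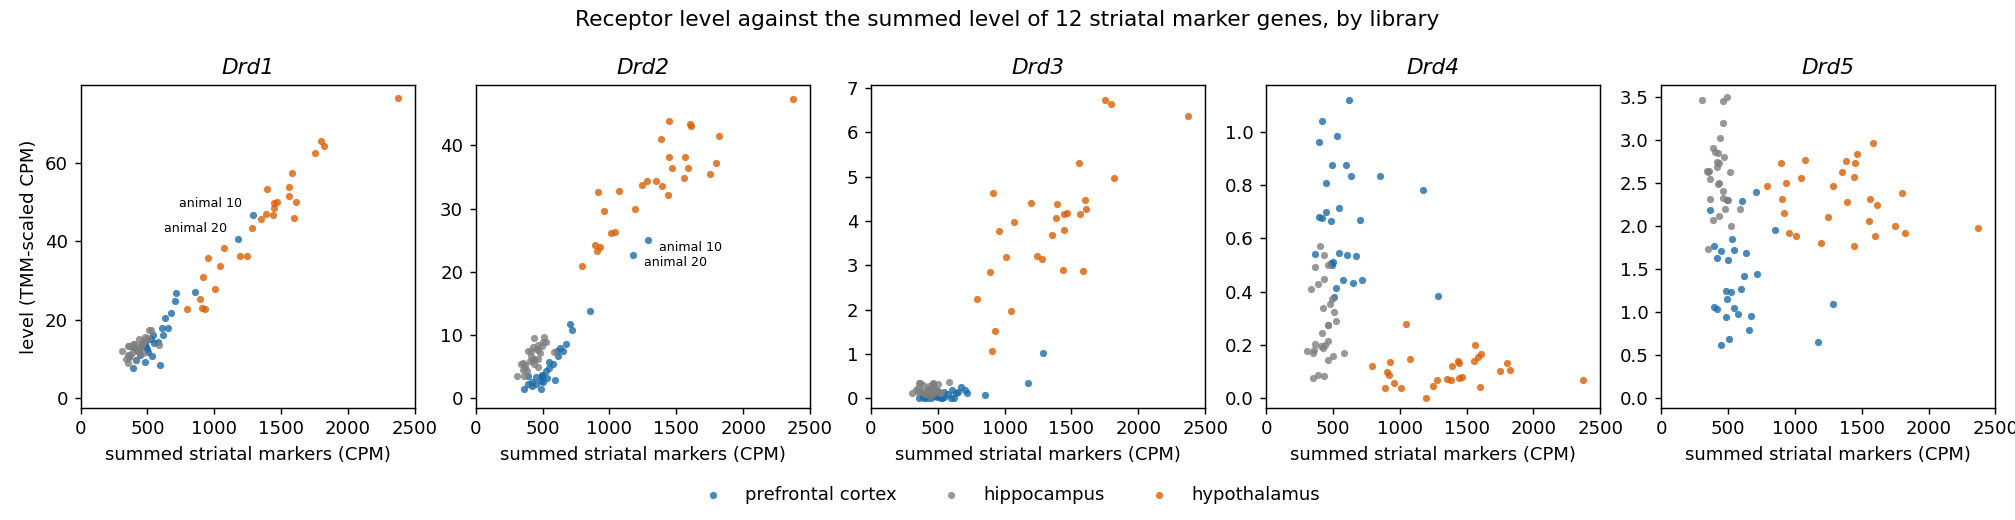
Level of each receptor (vertical axis, TMM-scaled CPM) against the summed level of 12 striatal marker genes (horizontal axis, CPM) in each library, in blue for prefrontal cortex, gray for hippocampus and orange for hypothalamus. Drd1 and Drd2 climb with the marker sum within each region, Drd3 does so in the hypothalamus, and the prefrontal libraries of animals 10 and 20 lie far to the right of the other prefrontal libraries.

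The prefrontal libraries of animal 10, a male with a small social network size, and animal 20, a male with a large one, stood apart. Their summed striatal markers were 1286 and 1175 CPM, against 362 to 854 CPM in the other 27 prefrontal libraries. Drd1 was 46.8 and 40.6 CPM against 7.72 to 27.03 CPM, and Drd2 was 25.1 and 22.7 CPM against 1.46 to 13.8 CPM. Drd3 was 1.02 and 0.353 CPM against at most 0.267 CPM, while Drd5 at 1.10 and 0.656 CPM stayed inside the range of the others. Without both libraries the prefrontal mean of Drd1 was 15.05 ± 5.27 and that of Drd2 was 5.05 ± 3.29 CPM (SD, n = 27), compared with 17.02 ± 9.01 and 6.34 ± 5.81 CPM with them (n = 29). Within these 27 libraries, r with the marker sum was 0.80 for Drd1 and 0.88 for Drd2. In 12 hypothalamic libraries the marker sum was no higher than that of animal 10. These 12 libraries had 20.9 to 34.4 CPM of Drd2 and 1.07 to 4.63 CPM of Drd3, whereas the 3 prefrontal libraries that reached the hypothalamic range of the marker sum had 13.8 to 25.1 CPM of Drd2 and 0.0710 to 1.02 CPM of Drd3. For Drd1 the values were 22.8 to 43.4 and 27.03 to 46.8 CPM. Drd1 and Drd2 overlapped between these libraries, and for Drd3 the lowest hypothalamic value, 1.07 CPM, lay just above the highest prefrontal one, 1.02 CPM.

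Across regions of the same animal, none of the 11 relations passed after adjustment. The largest r were those of Drd1 in the prefrontal cortex and hippocampus (r = 0.46 and rho = 0.36 over 29 animals, adjusted p = 0.0657 and 0.184, permutation test, r = 0.44 without the 2 farthest) and of Drd5 in the prefrontal cortex and hypothalamus (r = 0.45 and rho = 0.48 over 28 animals, adjusted p = 0.0754 and 0.0614, permutation test, r = 0.48 without the 2 farthest). For Drd2 in the prefrontal cortex and hypothalamus r was -0.45 and rho -0.40 (adjusted p = 0.0754 and 0.133, permutation test, r = -0.44 without the 2 farthest).

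The genes most like each receptor in a region were found by r of log2 levels over its libraries, among 14837 to 15128 genes with a mean of at least 1 CPM. They describe likeness only. In the prefrontal cortex the closest to Drd1 were Rgs9 (r = 0.96), Slc5a7 (0.95) and Rarb (0.95), and those to Drd2 were Lrrc10b (0.97), Six3 (0.97) and Syndig1l (0.96), over 29 libraries. In the hypothalamus they were Rarb (0.97), Serpina9 (0.96) and Strip2 (0.95) for Drd1, Dclk3 (0.92), Ankrd63 (0.91) and Serpina9 (0.90) for Drd2, and Efnb2 (0.84), Prkar2b (0.84) and Sv2c (0.83) for Drd3, over 28 libraries. Rarb encodes a retinoic acid receptor, Slc5a7 the choline transporter of cholinergic neurons, and Rgs9 a regulator of G protein signalling that is abundant in the striatum. In the hippocampus the values were lower, from 0.83 for Slc35d3 with Drd2 down to 0.57 for Rps6ka2 with Drd3. For Drd5 the closest genes were Slc2a9 in the prefrontal cortex (0.84), Mcm9 in the hippocampus (0.68) and Zpbp in the hypothalamus (0.64), and for Drd4 they were Stard4 in the prefrontal cortex (0.68) and Gfpt2 in the hippocampus (0.68). Receptors without a named gene in a region were below the filter on low counts there, Drd3 in the prefrontal cortex and Drd4 in the hypothalamus.

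The study asked whether brain gene expression differs with social network size, within each sex and region. No receptor passed the test in any of these comparisons. The filter on low counts left 23 receptor comparisons, without Drd3 in the prefrontal cortex and hippocampus, and without Drd4 in the hypothalamus and in the hippocampus of males. edgeR called 0 of 23, with 1 at an unadjusted p under 0.05, and the DESeq2 Wald test called 0. Among all genes tested, edgeR called 0.0113% in the prefrontal cortex of females and 0.00552% in the hypothalamus of females, and 0% in the hippocampus of females and in each region of males. An unadjusted p under 0.05 was reached by 9.59%, 12.2% and 7.39% of genes in prefrontal, hippocampal and hypothalamic females. In males these shares were 2.52%, 3.88% and 2.9%. Log2 fold changes of the receptors, taken as small minus large social network size, lay between -0.39 and 0.50, with standard errors between 0.09 and 0.58. By the exact permutation test of mean levels, two-sided, the smallest p among 30 comparisons was 0.0696, and in 0 of 30 did the groups separate. No share of separated groups over all genes is at hand to set beside this.

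The receptor closest to a difference was Drd2 in the hippocampus of males. It had 4.81, 7.68 and 9.52 CPM at the lowest, median and highest in males with small, and 4.36, 6.04 and 8.06 CPM in males with large social network sizes. The ranges overlapped, with the higher values in the males with small social network sizes, and the log2 fold change was 0.33 ± 0.15 (p = 0.0468 and adjusted p = 0.999, edgeR; p = 0.0696, exact permutation test, n = 8 and 7). Summed striatal markers in the same libraries were 367 to 585 CPM in males with small and 352 to 439 CPM in males with large social network sizes. Drd3 in the hypothalamus of females came next, with 2.25, 3.79 and 4.39 CPM in females with small and 2.85, 4.38 and 6.64 CPM in females with large social network sizes. For Drd3 this gave a log2 fold change of -0.39 ± 0.19 (p = 0.0536 and adjusted p = 0.675, edgeR; p = 0.0874, exact permutation test, n = 7 each), and the 3 highest values were all in females with large social network sizes. Drd1 there had 22.8, 38.3 and 57.5 CPM against 25.4, 53.5 and 76.4 CPM, with a log2 fold change of -0.35 ± 0.21 (adjusted p = 0.757, edgeR). Beside these, the striatal marker sum was 794, 1194 and 1611 CPM in females with small and 893, 1557 and 2373 CPM in females with large social network sizes, and its part in the values was not tested. The lowest Drd1, Drd3 and marker sum with large social network sizes all came from animal 19. According to the paper, RNA of that library had the lowest integrity of all samples, and it was kept because it did not act as an outlier.

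In hypothalamic males the same receptors stood on the other side of 0, with log2 fold changes of 0.35 ± 0.31 for Drd3 and 0.17 ± 0.23 for Drd1 (adjusted p = 0.9996 for both, edgeR). Drd3 had 1.07, 4.19 and 6.73 CPM in males with small and 1.52, 3.19 and 4.96 CPM in males with large social network sizes. The difference between the fold changes of females and males was -0.74 ± 0.38 for Drd3 (adjusted p = 0.787) and -0.51 ± 0.32 for Drd1 (adjusted p = 0.814, edgeR). No interaction of sex and social network size was called for any receptor: edgeR called 0 of 13, with 0 at an unadjusted p under 0.05, and DESeq2 called 0. Of all genes, edgeR called 0% in the prefrontal cortex, 0% in the hippocampus and 0% in the hypothalamus. An unadjusted p under 0.05 was found for 4.17%, 7.37% and 6.14% of them. The intervals do not exclude sizeable differences. For Drd2 in the prefrontal cortex the 95% interval of the log2 fold change ran from -0.45 to 1.45 in females and from -1.35 to 1.10 in males, whereas for Drd1 in the hippocampus of males it ran from -0.07 to 0.31.

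**Figure D4:**
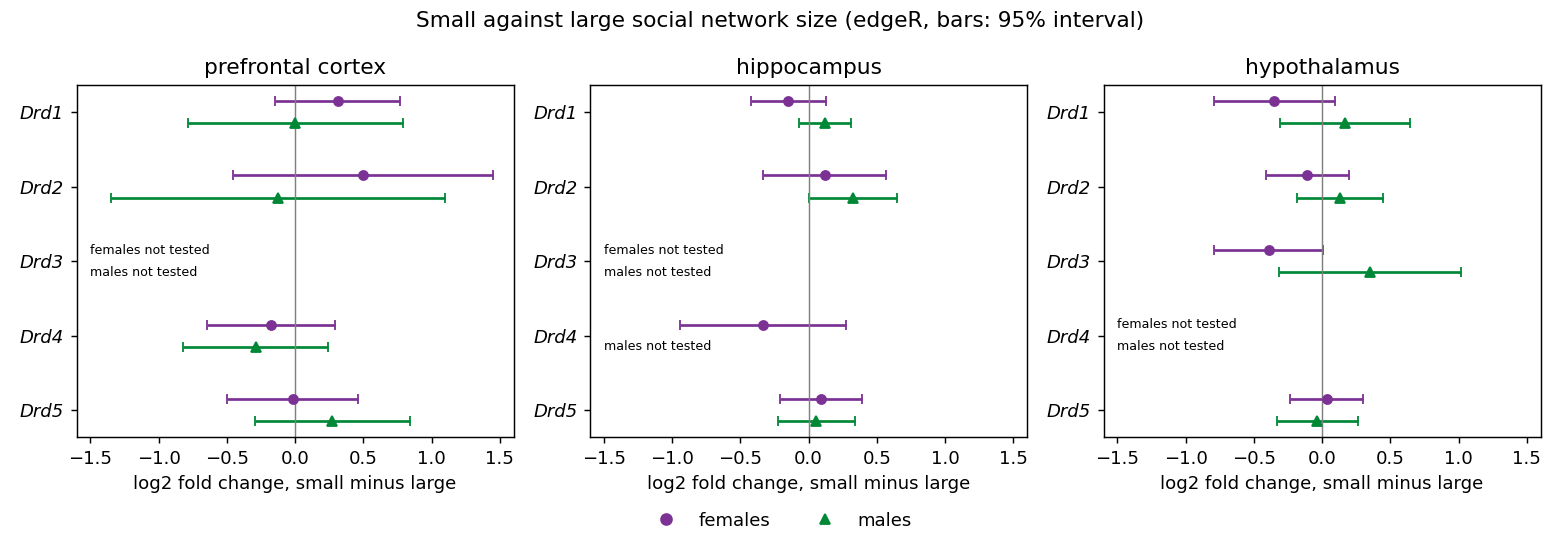
Log2 fold change of each receptor, small minus large social network size (horizontal axis), with its 95% interval from edgeR, by region, in purple for females and green for males. The interval is narrowest for Drd1 in the hippocampus of males, and intervals are widest for Drd2 in the prefrontal cortex. In the hippocampus of females that of Drd4 runs from -0.94 to 0.27. Receptors below the filter on low counts are marked as not tested.

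With both sexes together, social network size gave no call among 13 receptor comparisons either (edgeR 0, unadjusted p under 0.05 in 0, DESeq2 0), against 0.0163% of genes in the prefrontal cortex, 0% in the hippocampus and 0% in the hypothalamus. An unadjusted p under 0.05 was found for 8.16%, 8.94% and 3.39% of genes. Receptor fold changes lay between -0.23, for Drd4 in the prefrontal cortex (SE 0.17), and 0.23, for Drd2 in the hippocampus (SE 0.13). No receptor was called between females and males (edgeR 0 of 13, unadjusted p under 0.05 in 1, DESeq2 0), against 0.0921%, 0.102% and 0.117% of genes called in prefrontal cortex, hippocampus and hypothalamus. In these regions 4.96%, 6.02% and 6.73% of genes had an unadjusted p under 0.05 for sex. Drd5 in the prefrontal cortex had the smallest unadjusted p for sex. It had 0.957, 1.66 and 2.40 CPM at the lowest, median and highest in 14 females and 0.622, 1.10 and 2.30 CPM in 15 males. The ranges overlapped, and the log2 difference of females minus males was 0.45 ± 0.18 (adjusted p = 0.925, edgeR), or 0.39 without animals 10 and 20. Drd4 in the hippocampus, at a median of 10 counts, differed by 0.41 ± 0.27 (adjusted p = 0.853, edgeR). In the other regions the means of Drd5 were 2.66 ± 0.466 and 2.59 ± 0.424 CPM in the hippocampus, and 2.37 ± 0.346 and 2.28 ± 0.365 CPM in the hypothalamus, for females (n = 14) and males (n = 15 and 14).

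Of 44 genes that make, move, break down or answer to dopamine, all were tested in every comparison. Between regions, 25 were higher and 17 lower in the hypothalamus than in the prefrontal cortex, with a median log2 difference of 0.31 against 0.02 over all genes, of which 81.3% were called. In the hippocampus 16 were higher and 25 lower than in the prefrontal cortex (median -0.14 against 0.02), and in the hypothalamus 26 were higher and 13 lower than in the hippocampus (median 0.21 against -0.01). All 6 genes of dopamine synthesis were higher in the hypothalamus than in the prefrontal cortex, among them Th, the rate-limiting tyrosine hydroxylase (2.96 ± 0.17, adjusted p = 2.10e-23). So were both genes of transport and storage, the vesicular transporter Slc18a2 (2.96 ± 0.12, adjusted p = 6.29e-32) and the dopamine transporter Slc6a3 (5.87 ± 0.48, adjusted p = 9.33e-19, edgeR). Of the 10 genes of the Gs arm downstream of D1-class receptors, 9 were higher and 0 lower in the hypothalamus than in the prefrontal cortex, against 42.2% and 39.1% of all genes, such as the adenylyl cyclase Adcy5 (0.94 ± 0.07) and the Golf subunit gene Gnal (0.60 ± 0.04). Of the 13 genes of the Gi arm downstream of D2-class receptors, 3 were higher and 9 lower, the Gi and Go subunit genes Gnai1 (-0.60 ± 0.02) and Gnao1 (-0.39 ± 0.02) among the lower ones and Rgs9 (2.20 ± 0.13) among the higher ones. In the hippocampus against the prefrontal cortex, the Gs arm had 1 higher and 6 lower and the Gi arm 2 higher and 11 lower, against 38.8% and 33.3% of all genes. Ppp1r1b and Pde10a of the Gs arm and Rgs9 of the Gi arm are also in the striatal marker list. The sum of that list was 794 to 2373 CPM in the hypothalamus and 362 to 1286 CPM in the prefrontal cortex. Its part in the differences of both arms was not tested.

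For social network size, edgeR called 0 of these 44 genes in each sex and region. At an unadjusted p under 0.05 there were 10 in the hypothalamus of females, 4 in the hippocampus of females and 4 of males, and 2 or fewer in the others. These were 22.7%, 9.09% and 9.09% of the 44, against 7.39%, 12.2% and 3.88% of all genes tested, so that the share in hippocampal females was below that of all genes. The 3 with the smallest p in the hypothalamus of females were Th (0.91 ± 0.16, adjusted p = 0.142), the decarboxylase gene Ddc (0.73 ± 0.13, adjusted p = 0.142) and Slc6a3 (3.31 ± 0.63, adjusted p = 0.237), all higher with small social network sizes. DESeq2 called 4 genes there, these 3 (adjusted p = 0.000168, 0.000297 and 0.00251) and Slc18a2 (1.01 ± 0.24, adjusted p = 0.0208), and 0 in the other comparisons. Of all 28004 genes that DESeq2 tested in the hypothalamus of females, it called 43. In the same libraries, the sum of 8 midbrain dopamine neuron markers was 22.3, 122 and 212 CPM at the lowest, median and highest with small social network sizes. With large ones it was 17.5, 32.6 and 64.6 CPM. Slc6a3 is among the markers, as is Chrna6, which the paper lists as upregulated in these females. Over all hypothalamic libraries Slc6a3 and Aldh1a1 averaged 36.0 and 28.1 CPM, and each other marker at most 5.41 CPM. The sum thus partly repeats a called gene, and its part in these values was not tested. No receptor was called in the hypothalamus of females. Among the smallest p in the other groups were those of Adcy5, Gnal and Ppp1r9b in prefrontal females, Grk3, Ncs1 and Ppp1r9b in prefrontal males, Prkar2b and Arrb2 in hippocampal females, Prkar2b, Arrb1 and Maob in hippocampal males, and Gnal, Ppp1r9b and Grk3 in hypothalamic males, with adjusted p-values from 0.290 to 1 (edgeR).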

How the data were processed

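RNA of 3 brain regions of 29 animals gave 86 libraries. According to the methods, adapters and low-quality reads were removed, paired-end reads were mapped with STAR to GRCm38, and reads per gene were counted with HTSeq. The authors deposited raw counts of 35275 genes. The libraries came from a kit that does not mark strand. The annotation release and strand setting of the counting are not given in the sources used here. CASAVA 1.8.2 is named in the submitters' processing notes.

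GENCODE vM21 gave symbols, positions and exon lengths for 34490 genes. Groups were taken from the labels of sex, gregariousness and region. edgeR 4.0.16 in R 4.3.3 tested genes kept by filterByExpr (minimum count 10, minimum total count 15, proportion 0.7) by its quasi-likelihood test with TMM scaling and Benjamini-Hochberg adjustment at 0.05. Region fits had the animal as a block. Same-numbered libraries come from the same animal, and their deviations from group means correlated with r between 0.306 and 0.711 in all pairs. Log2 levels used a pseudocount of 0.1. Mean TMM-scaled CPM of single receptors was tested by exact permutation, two-sided (smallest possible p 0.000583 for 7 against 7 animals). P-values measure only the spread between these animals. DESeq2 1.42.0, scipy 1.17.1 and matplotlib 3.10.9 were also used. Alternatives were DESeq2's size factors, all genes with at least 1 count, the DESeq2 Wald test, all 4 groups in 1 fit, each animal left out, no block, and CPM by total count alone. Leaving out the prefrontal libraries of animals 10 and 20 was added after seeing the data, as were the correlations, first 33 among receptors and then 13 with the striatal marker sum, adjusted within each family. The tests were checked on simulated counts.

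Named genes were the 5 receptors, in each comparison of social network size the 3 genes of the dopamine lists with the smallest p, and for each receptor the 3 genes most like it. A gene that this rule named in 1 comparison is not reported here. The members and the gene lists were chosen with earlier results of these data known.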

Additional observations from a re-analysis of the deposited data

Results flagged for a closer look

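In 60 sets of 1 receptor in 1 group of 7 or 8 animals, 9 values lay far from the others by Dixon's test, which flags about 1 set in 20 by chance. Of these, 6 were in the prefrontal cortex and all 6 were the highest of their group. Animal 20, a male with a large social network size, had 40.6 CPM of Drd1 with the next value at 18.1 CPM, 22.7 CPM of Drd2 with the next at 7.49 CPM, and 0.353 CPM of Drd3 (14 counts) with the next at 0.136 CPM. Animal 10, a male with a small social network size, had 25.1 CPM of Drd2 with the next at 10.9 CPM, and 1.02 CPM of Drd3 (40 counts) with the next at 0.142 CPM. Animal 2, a female with a large social network size, had 11.8 CPM of Drd2 with the next at 5.76 CPM. Summed striatal markers in these 3 prefrontal libraries were 1175, 1286 and 705 CPM, against a median of 532 CPM in that region, and their part in the values was not tested.

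The other 3 values were single ones at low counts or close to the next. In hippocampal females with small social network sizes, animal 8 had 0.341 CPM of Drd3 (15 counts) with the next at 0.196 CPM, and animal 5 had 3.50 CPM of Drd5 with the next at 2.74 CPM. In hypothalamic males with large social network sizes, animal 24 had 0.278 CPM of Drd4 (13 counts) with the next at 0.136 CPM.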

How the results depend on the processing

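The number of receptors called was 0 in every comparison of social network size, sex or their interaction under all alternatives run. Between regions it was 5, 4 and 5 of 5 (hypothalamus against prefrontal cortex, hippocampus against prefrontal cortex, hypothalamus against hippocampus), and 5, 4 and 4 without the replicate block, where Drd5 between hypothalamus and hippocampus was lost. That call was also lost with all genes of at least 1 count (adjusted p = 0.0516, edgeR). Without animals 10 and 20, Drd1 was lost and Drd2 gained between hippocampus and prefrontal cortex (adjusted p = 0.178 and 0.00894, edgeR). Among all genes, DESeq2 called 74, 95 and 43 in prefrontal, hippocampal and hypothalamic females against edgeR's 2, 0 and 1. It called 2, 0 and 1 in males (edgeR 0, 0, 0), 18, 11 and 5 over both sexes (3, 0, 0), 30, 1 and 0 for the interaction (0, 0, 0) and 29, 27 and 38 for sex (17, 19, 22). With animals left out in turn, some fold changes near 0 turned direction, none of them called: Drd5 in prefrontal females ran from -0.11 to 0.11, Drd1 in prefrontal males from -0.38 to 0.36, Drd2 in prefrontal males from -0.83 to 0.49, Drd2 in hippocampal females from -0.0012 to 0.23, Drd5 in hippocampal males from -0.016 to 0.11, and Drd5 in hypothalamic females from -0.031 to 0.091 and males from -0.11 to 0.014. The extremes of Drd1 and Drd2 in prefrontal males came without animal 10 or animal 20. Without both animals, Drd1 in prefrontal males was -0.025, and the prefrontal sex difference was 0.25 for Drd1 and 0.34 for Drd2, against -0.12 and -0.32 with them. Drd5 in the hypothalamus over both sexes, -0.00093, was 0.0037 with all genes of at least 1 count and 0.00014 by DESeq2. Scaling by total count alone moved none of the 15 mean levels by more than 1 SD. With Spearman's rho in place of Pearson's r, 7 of 13 sets of the 3 most similar genes kept only 1 gene. Depth limits Drd3 in the prefrontal cortex and hippocampus, and Drd4 in the hippocampus and hypothalamus, where counts were often under 10. Median counts were 3 and 8 for Drd3, and 10 and 5 for Drd4. Adjusted over all 46 relations pooled, as done before the families were separated, 12 correlations passed for both coefficients in place of 4 and 7, the added one being Drd1 with Drd2 in the hippocampus (adjusted p = 0.0365 for r, permutation test).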
